A study of Mus musculus with 5 samples.

Results

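The genes described here encode 10 proteins of the extracellular matrix, and their transcripts were compared between WT and Atxn1L null hematopoietic stem cells (HSCs). The genes were Tgfbi, the type IV collagens Col4a1 and Col4a2, the laminins Lamb1 and Lamc1, and Fn1, Vcan, Sparc, Thbs1 and Spp1. Every probe set that the platform annotation gives to exactly 1 of these genes was taken, whatever its value, which made 28 probe sets of 9 genes among the 45037 probe sets tested. Spp1, which encodes osteopontin, had no probe set of its own name and is not reported here.

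The HSCs came from bone marrow of C57Bl/6 mice, either wildtype or lacking Atxn1L. The mice were 6 to 8 weeks old per the labels and 8 weeks per the study's methods. The HSCs were sorted as cells of the side population, which pumps out Hoechst dye. These cells carried no lineage markers, had c-Kit, Sca-1 and CD150 on the surface, and received no treatment. RNA of pooled HSCs was amplified, labelled and hybridised to 5 Affymetrix expression arrays, 3 for WT and 2 for Atxn1L null HSCs. Each pool was 1 array, and the number of mice in a pool is not given, so every p-value measures only the spread between these pools. Atxn1L is a paralog of ataxin 1 that binds the transcriptional repressor Capicua, and the comparison asks which transcripts changed when it was absent.

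The extracellular matrix is the network of secreted proteins and sugars to which cells attach, and in bone marrow it forms part of the niche that holds HSCs. Type IV collagens and laminins build the basement membrane, fibronectin and versican belong to the looser matrix around cells, and matricellular proteins such as thrombospondin and Sparc alter how cells bind to both. Tgfbi encodes a secreted protein that binds collagens and integrins, and its transcript is induced by transforming growth factor β (TGFβ), which acts on HSCs as a signal for quiescence. Much of the bone marrow matrix is made by stromal, endothelial and megakaryocytic cells. In a pool of sorted cells, transcript from fewer cells of a type and less transcript per cell cannot be told apart.

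The promoter windows of the genes called higher, and of Col4a2, which shares its promoter region with Col4a1, are shown first. They run from 250 bases before to 50 bases after the annotated start and are from RefSeq on the GRCm38.p6 assembly, where 7 of the 10 genes had a window. Tgfbi lies at chr13:56609586-56639359, with its window at chr13:56609336-56609635 on the plus strand. Capitals mark its 2 GC boxes, at -124 and 15 from the start. Col4a1, at chr8:11198423-11312889, and Col4a2, at chr8:11312805-11449287, are transcribed away from each other, and these spans overlap at their starts. The start sites that the windows are set on, 11312826 for Col4a1, which lies inside its span, and 11312805 for Col4a2, are 21 bases apart. Their windows, at chr8:11312777-11313076 on the minus strand and chr8:11312555-11312854 on the plus strand, overlap by 78 bases, which the capitals mark and which read as reverse complements of each other.
Tgfbi: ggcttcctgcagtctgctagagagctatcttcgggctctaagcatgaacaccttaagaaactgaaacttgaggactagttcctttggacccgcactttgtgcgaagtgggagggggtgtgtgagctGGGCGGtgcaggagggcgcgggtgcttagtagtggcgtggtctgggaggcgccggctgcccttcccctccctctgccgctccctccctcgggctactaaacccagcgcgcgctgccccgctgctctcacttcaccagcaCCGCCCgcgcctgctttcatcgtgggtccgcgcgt
Col4a1: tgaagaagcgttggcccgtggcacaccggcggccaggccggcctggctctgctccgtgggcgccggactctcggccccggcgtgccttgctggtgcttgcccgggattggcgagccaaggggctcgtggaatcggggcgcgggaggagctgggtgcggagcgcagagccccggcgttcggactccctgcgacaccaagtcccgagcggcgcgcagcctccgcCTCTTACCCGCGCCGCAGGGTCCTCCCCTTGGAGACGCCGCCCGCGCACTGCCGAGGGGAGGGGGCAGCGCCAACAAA
Col4a2: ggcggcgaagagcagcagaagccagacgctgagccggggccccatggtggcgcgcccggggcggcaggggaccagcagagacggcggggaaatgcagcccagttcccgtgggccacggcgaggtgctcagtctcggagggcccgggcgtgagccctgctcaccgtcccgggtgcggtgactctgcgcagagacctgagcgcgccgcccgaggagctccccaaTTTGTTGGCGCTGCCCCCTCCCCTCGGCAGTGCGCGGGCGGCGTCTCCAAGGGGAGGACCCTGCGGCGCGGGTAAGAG
All 3 windows are rich in G and C, at 63.3% for Tgfbi, 74.0% for Col4a1 and 73.7% for Col4a2. On either strand the GC box GGGCGG was found 2 times in Tgfbi, 1 time in Col4a1 and 3 times in Col4a2, and 35.7% of the 32851 promoter windows of the table held it. The Smad-binding sequence CAGACA, in 21.0% of all windows, and the TATA box TATAAA, in 13.6%, were in none of the 3. Nor was any of the Capicua-binding octamers TGAATGAA, TGAATGGA, TCAATGAA and TCAATGGA, which 3.84% of all windows held. These matches and their absence describe letters in a window, and occupancy by a factor was not measured.

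The values are log2 GCRMA values, in which 1 unit is a doubling of signal, and a difference is always Atxn1L null minus WT. A probe set was called at an unadjusted p of at most 0.05 in limma and a fold of at least 1.5, the study's criterion, and it was bright if its mean was at least 5 in a genotype. The array medians lay between 3.03 and 3.07. By this mark 12936 of all probe sets (28.7%) were bright, and 5 of the 28 matrix probe sets were, 3 of Tgfbi and 1 each of Col4a1 and Fn1. The other 23 lay between 1.88 and 4.75 on every array, where GCRMA compresses differences. With 3 arrays against 2, an exact permutation test cannot give a p below 0.1. Smaller p-values therefore rest on limma's model of the spread. In it each probe set's own variance (3 residual degrees of freedom) outweighs the part shared across probe sets (0.771 prior degrees of freedom).

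Tgfbi and Col4a1 were higher in Atxn1L null HSCs, and no other matrix gene of the 9 was called. Of the 28 probe sets, 4 were called higher, 3 of Tgfbi and 1 of Col4a1, against 1.13% of all probe sets and 3.39% of the bright ones. None was called lower, against 1.25% of all and 4.06% of the bright ones, and 2.38% of all were called in either direction. By gene, 2 of 9 were called higher on at least 1 probe set and 0 lower, against 2.3% and 2.21% of all 18193 genes. The 4 called were also the only ones of the 28 to meet the p criterion, which 5.59% of all probe sets met, 3.2% with null above WT. The median difference over the 28 was -0.00068, beside -0.0025 over all probe sets tested. Both null arrays lay above all 3 WT arrays for the same 4 probe sets (6.75% of all), and both lay below for none (7.5% of all). The study had already named Tgfbi as higher from these same arrays. Its calls were thus known beforehand, so setting these counts beside the shares of all probe sets is not an independent test. The lowest Benjamini-Hochberg adjusted p among the 28, over all probe sets in limma, was 0.362, so none passed a false discovery threshold.

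**Figure D1:**
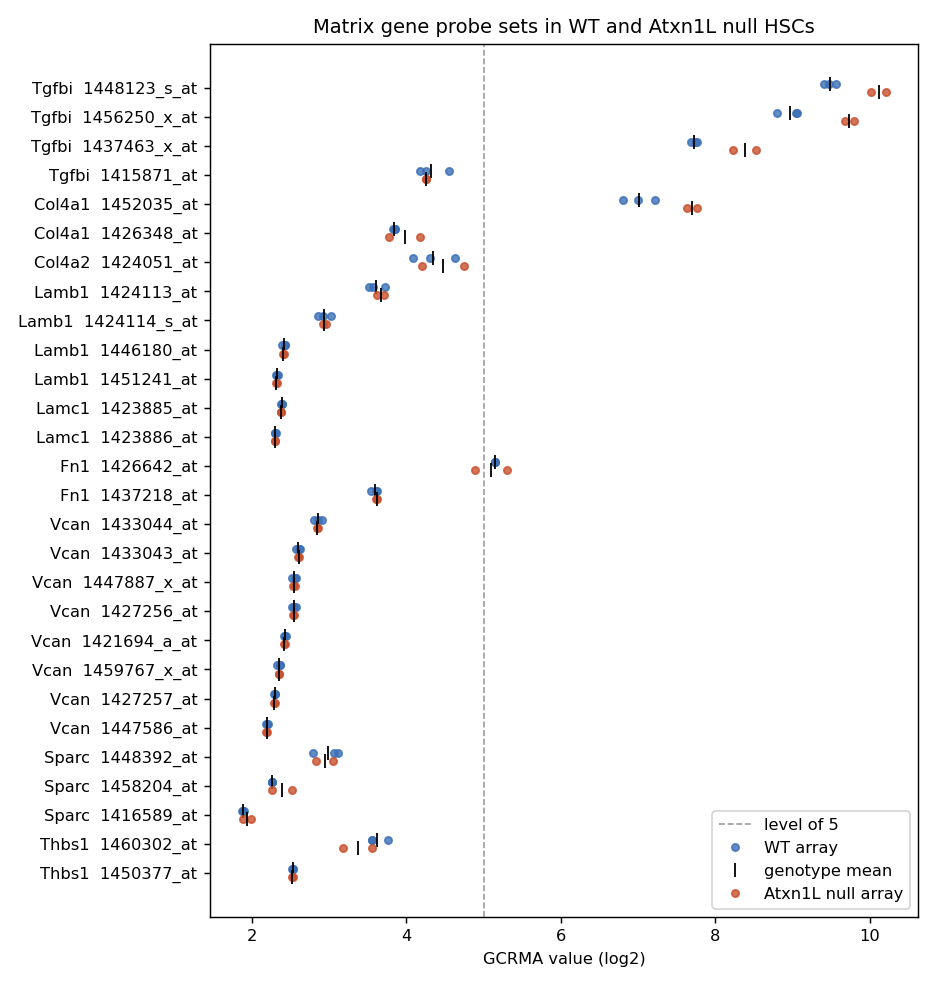
Log2 GCRMA value (horizontal axis) of each of the 28 matrix gene probe sets (rows), with a point per WT array (blue) and Atxn1L null array (orange), a tick at each genotype's mean and a dashed line at 5. The null points lie above all WT points for 3 Tgfbi probe sets and the brighter Col4a1 probe set, and overlap them for the others.

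The study names Tgfbi among the genes higher in Atxn1L null HSCs, and the array reads it with 4 probe sets. The brightest, 1448123_s_at, read 9.41, 9.47 and 9.56 in the WT arrays and 10.02 and 10.21 in the null arrays. The lowest null array thus stood above the highest WT array, and each genotype spread over less than the gap between them. The mean was 9.48 ± 0.08 (SD, n = 3) for WT and 10.12 ± 0.14 (SD, n = 2) for null arrays, which differed by 0.64 ± 0.08 (SE) or 1.56-fold (limma, unadjusted p = 0.00185, adjusted p = 0.362).

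The second Tgfbi probe set, 1456250_x_at, read 8.80, 9.05 and 9.05 in WT and 9.80 and 9.67 in null HSCs. Its difference was the widest of the 4, at 0.77 ± 0.11 (SE) with a 95% interval of 0.47 to 1.07, or 1.70-fold (limma adjusted p = 0.374). The third, 1437463_x_at, read 7.68, 7.77 and 7.74 in WT and 8.53 and 8.23 in null HSCs. Here the WT arrays lay within 0.08 of each other while the null arrays were 0.29 apart, and the difference was 0.65 ± 0.10 (SE), or 1.57-fold (limma adjusted p = 0.432). The order of the null arrays was not shared, since null 2 was the higher on the brightest probe set and null 1 on the others that were called.

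The fourth Tgfbi probe set, 1415871_at, gave a different reading. It read 4.55, 4.25 and 4.17 in WT and 4.25 in both null arrays, with a difference of -0.07 (95% interval -0.44 to 0.30). The genotypes overlapped, the signal was under the bright mark on every array, and the interval did not reach the differences measured on the other 3. The second WT array and both null arrays tied at 4.2513, in a range where GCRMA compresses differences. The interval therefore does not bound a change in transcript level. This probe set and the brightest are annotated to the same RefSeq transcript. By Affymetrix naming, _s_at marks probes that may match several transcripts and _x_at marks probes that may also bind unrelated ones. All 3 called Tgfbi probe sets carry such a suffix, and the only one without it was the dim one. Signal from other transcripts in the 3 was not tested.

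Few genes had as many probe sets called higher as Tgfbi. The study had already named it as higher from these arrays, so its place among those few was not an independent result. Of the 4315 genes with at least 3 probe sets 6 (0.139%) had 3 or more called higher, and of the 1949 genes with at least 4 probe sets the same 6 (0.308%) did, and they were Mrps9, Ppp1cb, Srsf3, Tgfbi, Tmem41b and Uck2, named after their values were seen. Probe sets of 1 gene read the same RNA on the same arrays and are not replicates of each other. When the 4 Tgfbi probe sets were averaged first, the difference was 0.50, below the fold criterion (limma unadjusted p = 3.8e-05, adjusted p = 0.0935).

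Leaving out 1 array at a time kept the sign of all 3 called Tgfbi probe sets. Where a null array was left out, the remaining 1 was assumed to vary like the WT arrays, so those tests rest on the WT spread. The brightest ranged from 0.54 to 0.73 and lost its call, through the fold, without the second null array. The second ranged from 0.69 to 0.83 and was called each time. The third ranged from 0.50 to 0.80 and lost its call without the first null array, where it was 0.50. The dim probe set ranged from -0.15 to 0.04 and was never called.

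**Figure D2:**
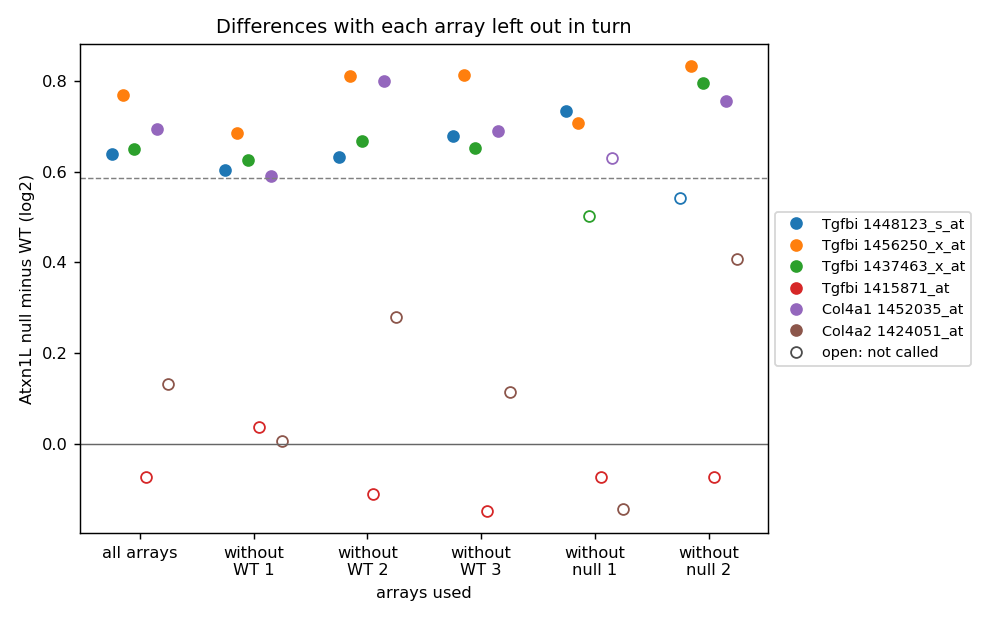
Difference of Atxn1L null minus WT on the log2 scale (vertical axis) for the 4 Tgfbi probe sets and the brightest of Col4a1 and Col4a2, with all 5 arrays and with each array left out (horizontal axis), filled points being called. The 4 called probe sets stay between 0.50 and 0.83, with open points only where a null array is left out, while the dim Tgfbi and Col4a2 probe sets lie on both sides of 0.

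Among the basement membrane genes, Col4a1 was called higher and its partner Col4a2 was not. Col4a1 encodes the chain that, with that of Col4a2, forms the most widespread type IV collagen. Its brighter probe set, 1452035_at, read 6.80, 7.22 and 7.00 in WT and 7.76 and 7.64 in null HSCs. The null arrays lay close together and above all WT arrays, which were spread over 0.42. The mean was 7.01 ± 0.21 (SD, n = 3) for WT and 7.70 ± 0.09 (SD, n = 2) for null arrays, which differed by 0.69 ± 0.14 (SE) or 1.62-fold (limma, unadjusted p = 0.0101, adjusted p = 0.572). The 95% interval, 0.28 to 1.10, reached well below the fold criterion.

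With array weights the Col4a1 difference was 0.48, below the fold criterion. Without the first null array it was 0.63, still above the fold, and the test, which then had 1 null array and only the WT spread, missed the p criterion (limma, unadjusted p = 0.0599, adjusted p = 0.610). Over the arrays left out in turn it ranged from 0.59 to 0.80. The other Col4a1 probe set, 1426348_at, derived from the same sequence accession, read 3.83, 3.85 and 3.85 in WT and 4.17 and 3.78 in null HSCs. It was dim, the null arrays fell on both sides of WT, and its difference of 0.14 (95% interval -0.24 to 0.51) was not called.

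Col4a2 had 1 probe set, 1424051_at, which read 4.09, 4.63 and 4.30 in WT and 4.75 and 4.20 in null HSCs. The genotypes overlapped and the signal was dim throughout. The difference of 0.13 had a 95% interval of -0.60 to 0.87, wide enough to hold both no change and that of Col4a1. It turned sign when arrays were left out, from -0.14 to 0.41. Whether the pair sharing a promoter region differ in their response was not tested.

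The laminin genes were dim and flat. Lamb1, which encodes a laminin beta chain, had 4 probe sets between 2.31 and 3.73 on all arrays, with differences of -0.01 to 0.06. Lamc1, which encodes the gamma chain found in most laminins, had 2 between 2.29 and 2.39, with differences of no more than 0.0018 in size. At such values, near the floor of the scale, a change in transcript level was not detectable, and absence of change was not shown.

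**Figure D3:**
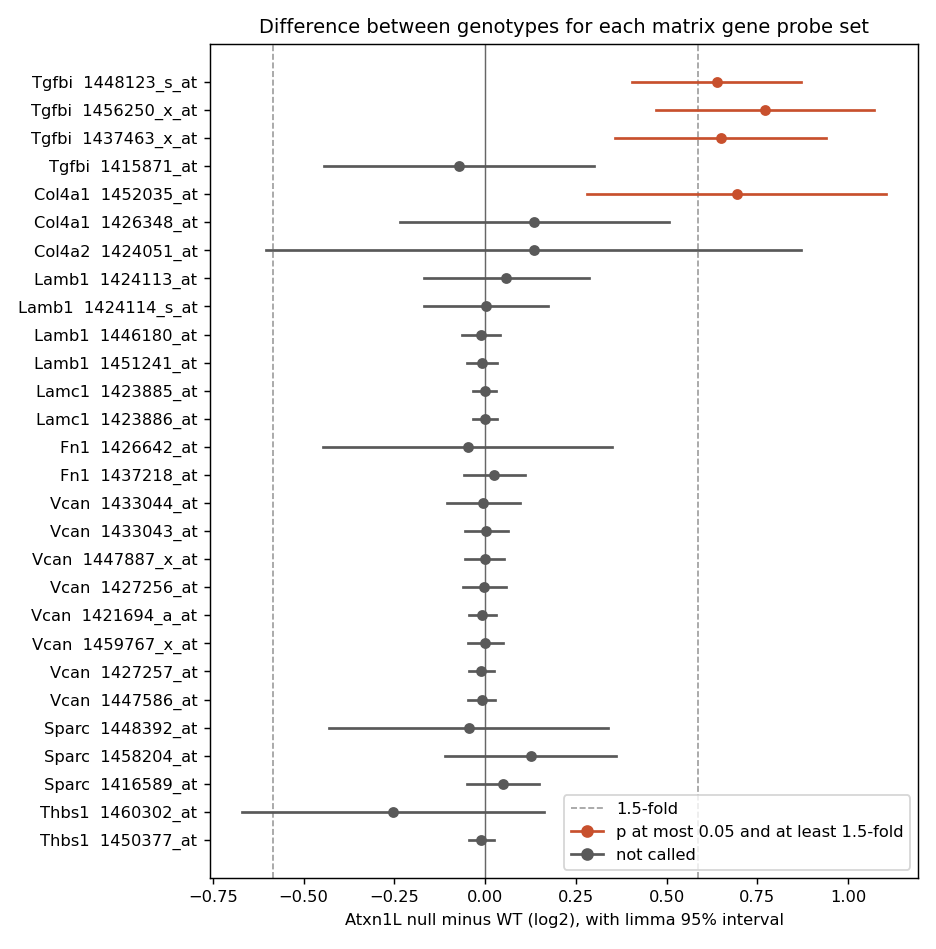
Difference of Atxn1L null minus WT on the log2 scale (horizontal axis) with its limma 95% interval for each of the 28 probe sets, with dashed lines at 1.5-fold. The 3 called Tgfbi probe sets and 1 of Col4a1 lie at 0.64 to 0.77 with intervals above 0, and the intervals of the other 24 include 0.

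Fibronectin, which links cells to the matrix through integrins, was measured by 1 bright and 1 dim probe set of Fn1. The bright one, 1426642_at, read 5.15 in all 3 WT arrays, equal to the fourth decimal, and 4.89 and 5.31 in the null arrays. The null arrays stood on either side of WT, and the difference was -0.05 (95% interval -0.45 to 0.35). A WT spread of 0 over 3 pools is a tie in the deposited values and gives no measure of biological spread. The dim one, 1437218_at, ranged from 3.54 to 3.63 with a difference of 0.03. Vcan, which encodes the hyaluronan-binding proteoglycan versican, had 8 probe sets, all between 2.18 and 2.90 and none differing by more than 0.0109 in size.

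The matricellular genes were dim as well. Sparc, which encodes a collagen-binding glycoprotein of bone and stroma, had 3 probe sets between 1.88 and 3.11, with differences of -0.05 to 0.13. Thbs1 encodes thrombospondin, a platelet and matrix protein that can release TGFβ from its latent form. Its probe set 1460302_at read 3.56, 3.76 and 3.56 in WT and 3.56 and 3.19 in null HSCs. Of the 28 this was the lowest difference, at -0.25 (95% interval -0.67 to 0.16), and it rested on the second null array, since the first equalled 2 of the WT arrays. The other Thbs1 probe set, 1450377_at, lay between 2.52 and 2.54. A further probe set, annotated to both Pald1 and Thbs1 and so outside the 28, read 5.05, 5.29 and 5.94 in WT and 4.41 and 5.23 in null HSCs, and its difference of -0.61 was not called (limma unadjusted p = 0.216).

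Over the 23 dim probe sets together, differences ran from -0.25 to 0.14, and 19 lay within 0.1 of 0. None of the 23 was called.

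**Figure D4:**
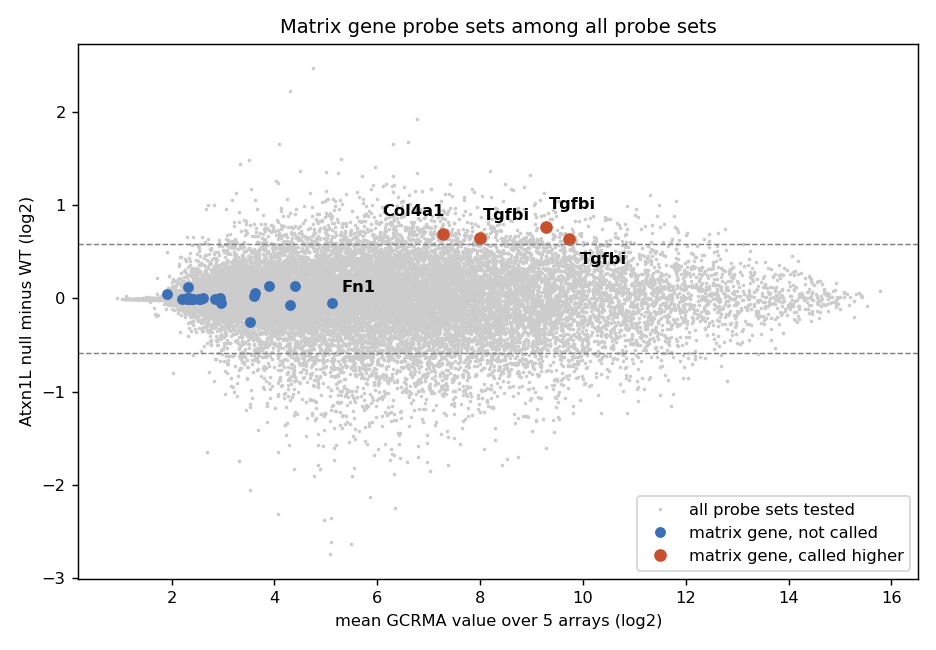
Mean log2 GCRMA value over the 5 arrays (horizontal axis) against the difference of Atxn1L null minus WT on the log2 scale (vertical axis), with every probe set tested in gray and the 28 matrix gene probe sets in color. The 4 called probe sets, of Tgfbi and Col4a1, lie among the bright ones, above the 1.5-fold line. Fn1 lies near 0 and just over the bright mark, with tied WT values.

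The genes whose pattern over the 5 arrays was nearest to that of the brightest Tgfbi probe set were Gnpnat1, Map3k5, Strap, Tmem106b and Hk2. Likeness was the root mean square difference between values centred on their own mean, over 10957 bright probe sets of 7237 single genes, whose median was 0.369. Gnpnat1, an enzyme of amino sugar synthesis, was nearest at 0.033 and was itself called higher, by 0.67. Map3k5, a stress-activated kinase, Strap, Tmem106b, a lysosomal membrane protein, and Hk2, a hexokinase, followed at 0.055 to 0.068 with differences of 0.52 to 0.58, none of them called. The other called Tgfbi probe sets stood at 0.133 and 0.159, the brighter Col4a1 probe set at 0.161 and Fn1 at 0.347. The measure includes the step between genotypes and is given as a description of 5 arrays.

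Other genes of the matrix were read by 1 probe set each, the brightest of the gene. Of 181 genes in 9 lists, 172 were measured and 52 were bright. None was called higher and 1 was called lower, against 1.57% and 1.43% of all genes read in this way. The median difference was -0.0037, beside -0.0019 over all 18193 genes, and the null arrays lay above all WT arrays for 6 of the 172 and below them for 15, against 9.14% and 8.35% of all genes. The direction of these few calls turned with the processing, since repeated quantile normalization, or leaving out the third WT array, gave 1 higher and 0 lower, and leaving out the second null array gave 5 higher and 3 lower.

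The gene called lower was Nrros, which encodes a protein that tethers latent TGFβ to the surface of myeloid cells. It read 8.02, 7.55 and 7.84 in WT and 7.06 and 7.38 in null HSCs. The genotypes did not overlap, and the difference of -0.59 only just met the fold criterion (limma adjusted p = 0.837). Its call was lost when any array but the second WT array was left out, with differences of -0.75 to -0.43, and with repeated quantile normalization (-0.56) or array weights (-0.33). Elsewhere among the 12 measured genes of TGFβ storage and activation, Ltbp3, which binds latent TGFβ, had means of 13.08 and 12.82 in WT and null arrays. The integrin subunit Itgav had 9.93 and 10.04.

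Of 10 other measured genes induced by TGFβ, 7 were bright and 0 were called on the brightest probe set, with a median difference of -0.09. The brightest were Skil, a repressor of Smad signaling, and the cell cycle inhibitor Cdkn1a. Skil read 10.83, 11.22 and 10.97 in WT and 11.69 and 11.23 in null HSCs, so that the lower null array stood barely above the highest WT array, and its difference of 0.45 was not called. Cdkn1a had means of 11.03 and 10.90, with overlap. Gadd45b, a stress-induced gene, was called lower on 1 of its 3 probe sets, 1450971_at, which fell from 8.72 to 7.90 (limma adjusted p = 0.768), and that call was lost when the first WT, the second WT or the second null array was left out. Pmepa1, a feedback inhibitor named after its values were seen, read 9.67, 9.51 and 9.66 in WT and 9.80 and 9.93 in null HSCs. Its difference of 0.25 stayed under the fold criterion. Of the 10, both null arrays lay above all WT arrays for 2 and below them for 2, against 9.14% and 8.35% of all genes.

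Other basement membrane genes gave little signal, with 1 of 19 bright and a median difference of -0.0051. That gene, Lamb2, a laminin beta chain, had means of 5.64 and 5.59. Agrn, a basement membrane proteoglycan, followed just under the mark at 4.85 and 4.76. Of 12 interstitial collagens 1 was bright, Col1a2, which ran from 5.24 to 6.52 within WT and overlapped between genotypes, while Col12a1, the next brightest, read 3.02 and 3.06.

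Among 30 other glycoproteins, 3 were bright. Vwf, the von Willebrand factor of endothelium and platelets, read 8.71 and 8.72, and Mfge8, a bridging protein for apoptotic cells, read 8.58 and 8.53. Among 22 proteoglycans and hyaluronan genes 3 were bright, and the highest signal was that of Srgn, the proteoglycan of blood cell granules, at 13.12 and 13.09. Bgn, which encodes biglycan, read 7.11, 7.55 and 7.57 in WT and 8.01 and 7.93 in null HSCs. The genotypes did not overlap, and the difference of 0.56 stayed under the fold criterion (limma adjusted p = 0.808).

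Of 17 genes that process or crosslink collagen, 8 were bright, among them the transglutaminase Tgm2 at 13.01 and 12.97 and P4hb, a subunit of collagen prolyl hydroxylase, at 12.10 and 11.99. A dimmer probe set of Tgm2, 1417500_a_at, was called lower, from 8.21 to 7.54 (limma adjusted p = 0.765), and was 1 of 6 of that gene. It was called again in only 1 of the 5 fits that left out an array. Of 25 proteases and inhibitors 10 were bright. Adam10, a membrane protease that sheds surface proteins, read 10.19, 10.51 and 9.98 in WT and 10.86 and 10.76 in null HSCs, a difference of 0.58 that fell just short of the fold. The cysteine protease Ctss read 10.07 and 9.88. Both null arrays lay above all WT arrays for 1 of the 25, against 9.14% of all genes, and below them for 2, against 8.35%. The 1 above was Adam10, and the 2 below were Ctsl and Adam17. These 2, named after their values were seen, differed by -0.50 and -0.25 and were not called.

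Of 25 receptors for the matrix 15 were bright. Both null arrays lay above all WT arrays for 1 of the 25 and below them for 3, against 9.14% and 8.35% of all genes. Among the 3 was Itgb5 at -0.33, named after its values were seen and not called. The integrin subunit Itgb3 read 10.59 and 10.43 and the hyaluronan receptor Cd44 read 10.21 and 9.98, both with overlap. The widest difference of the 172 genes was that of the hyaluronan receptor Hmmr, named after its values were seen, at 0.83, and it came from the first null array alone, with 4.15, 4.88 and 4.65 in WT and 6.14 and 4.64 in null HSCs. It was not called.

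**Figure D5:**
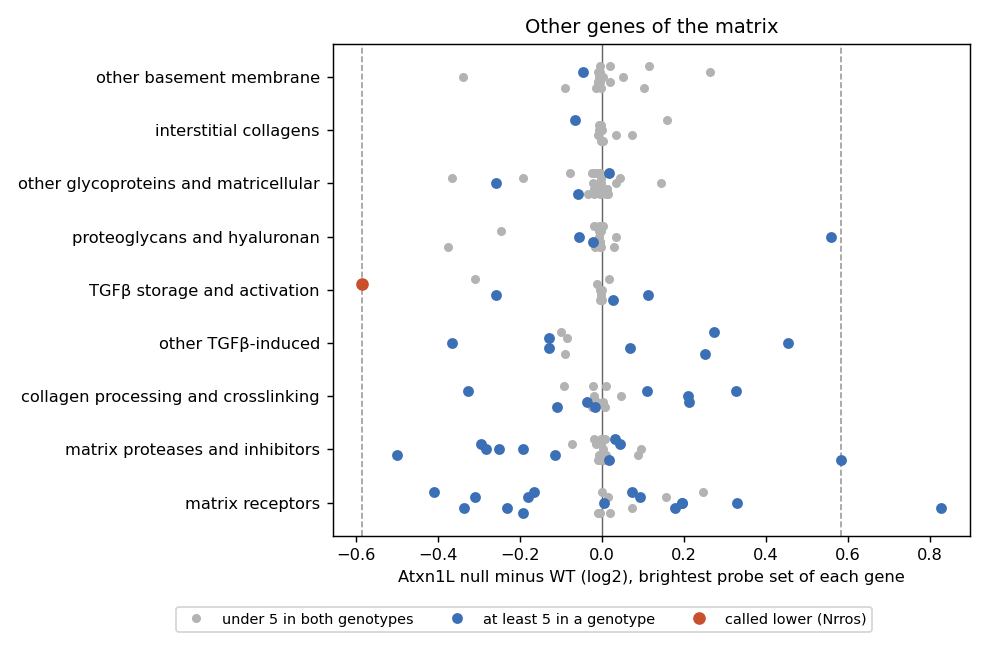
Difference of Atxn1L null minus WT on the log2 scale (horizontal axis) for 172 other matrix genes in 9 lists, each point a gene read by its brightest probe set, blue where it was at least 5 in a genotype. The dim genes cluster at 0, Nrros is the only point called, at -0.59, and the widest difference, 0.83, was not called.

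Several measures of the whole arrays stood beside these results, and their part in them was not tested. Atxn1l itself fell by 2.62 on its brightest probe set, from 6.15 to 3.53 (limma adjusted p = 0.747), and by 2.75 on another. The excess of 3' over 5' control signal was higher in null arrays by 1.33 for Gapdh and by 0.79 for beta-actin, beyond the spread within each genotype. HSC markers had a summed level, on the log2 scale, of 14.80 to 14.93 in WT and 14.58 to 14.68 in null HSCs, with 10 of 11 measured markers bright and no overlap between those ranges. Highest among them, and weighing most in the sum, were Procr, at 13.57 and 13.39 with overlap, and Hoxa9, at 13.39 and 13.10 without overlap. Hoxa9 is among the genes the study names as lower in null HSCs. None of the 11 was called here, and 2 of them had a higher mean in null arrays. Both null arrays lay below all WT arrays for 3 of the 11 and above them for 0, against 8.35% and 9.14% of all genes.

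Markers of other cell types that make matrix were checked in the same way, and none was called. Of 12 measured stromal and osteoblast markers 2 were bright. The summed level of the 12 was 8.07 to 8.54 in WT and 8.38 to 9.34 in null HSCs. It was led by Pdgfrb, at 7.51 and 8.32 with overlap, and by Col1a2, while the niche chemokine Cxcl12, named after its values were seen, read 3.34 and 3.25. For 10 endothelial markers it was 9.31 to 9.78 and 9.44 to 9.67, led by Vwf and Egfl7. Only 3 of these 10 were bright. Cdh5 and Pecam1, named after their values were seen, lay near the floor, with WT means of 2.35 and 2.32 and null means of 2.34 and 2.32. Of 8 megakaryocyte and platelet markers 2 were bright, Pf4 and Itga2b. The summed level of the 8, led by these 2, was 11.13 to 11.57 and 10.89 to 11.68. All 3 ranges overlapped between genotypes.

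For 10 monocyte and macrophage markers, cells in which Tgfbi is abundant, the summed level was 10.75 to 11.36 in WT and 10.36 to 11.46 in null HSCs. Lyz2 made up most of it and ran from 10.33 to 11.13 in WT and from 10.02 to 11.22 in null HSCs. Of the 10 markers 4 were bright. Besides Lyz2, Csf1r read higher in both null arrays, with means of 6.75 and 7.17. Cd14 read lower in both, with 7.50 and 6.85, and C1qa had means of 5.75 and 5.11 with overlap. Cd68 was dim, and Itgam, Ccr2, Fcgr1 and Ms4a7 lay near the floor of the scale. All of these but Lyz2 and Cd14 were named after their values were seen. Neutrophil markers summed to 14.57 to 15.50 and 14.73 to 15.55, led by S100a8 and Camp. Of 5 lymphoid markers 1 was bright, Vpreb1, and the 5 summed to 7.40 to 9.05 and 8.33 to 8.74. Of 4 erythroid markers 0 were bright, and the 4 summed to 5.08 to 5.55 and 5.08 to 5.17.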

How the data were processed

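Amplified RNA of HSC pools, 3 WT and 2 Atxn1L null, was hybridised to MOE430.2 arrays. The deposited values are those the authors obtained by GCRMA (background correction, quantile normalization, summarization), on what was taken as a log2 scale from their range of 0.93 to 15.84. Its version was not given in the sources used here. All 5 value columns were assigned to genotypes by the labels, whose replicate numbers state no pairing.

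After removal of 64 control probe sets, limma 3.58.1 (R 4.3.3; lmFit, eBayes, default settings) was fitted to 45037 probe sets, dim ones included, with 3 residual and 0.771 prior degrees of freedom. Calls required an unadjusted limma p-value no higher than 0.05 together with a change of 1.5-fold or more. Benjamini-Hochberg adjustment covered all 45037. The number of arrays limits the precision. By the annotation, 34945 probe sets had 1 gene, 932 several and 9160 none. The fit was tested on simulated data.

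The matrix genes, the lists and the tests were chosen with earlier results of these data known. Named were every matrix gene and probe set, Atxn1l, the 5 genes nearest Tgfbi, and of each list up to 3 called genes in a direction or, with none called, the 2 brightest; others are said to be named after their values were seen. Alternatives changed the variance model, array weights, normalization, centring, the probe sets kept (without dim ones, without _s_at and _x_at ones, 1 value per gene), the criterion, the replicate block and the arrays kept.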

Additional observations from a re-analysis of the deposited data

How the results depend on the processing

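The 4 calls on Tgfbi and Col4a1 probe sets held with a variance trend, repeated quantile normalization, median centring and dim probe sets left out. Without the _s_at and _x_at probe sets 1 probe set of 1 gene, Col4a1, was called, and the 3 called Tgfbi probe sets were themselves removed. With array weights 1 gene was called, Tgfbi. Averaging the probe sets of a gene left 0 genes called, with Tgfbi at 0.50, and keeping the brightest left 2 probe sets, 1 of each gene, and 546 calls over all genes. At an adjusted p under 0.05 the matrix probe sets, matrix genes and other matrix genes called were 0, and 1 of all probe sets passed, so Tgfbi at 0.64 and Atxn1l at -2.62 did not. At a 2-fold criterion 230 of all probe sets and 0 in the matrix groups passed, Tgfbi at 0.64 included among the lost. At p of at most 0.05 alone, 2517 of all probe sets passed (against 1074) and 7 other matrix genes.

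Over all probe sets, 1074 calls with all arrays became 709 (without the first WT array) to 1948 (without the second null array) when each array was left out. The same fits gave 2 to 4 matrix probe sets and 1 to 2 matrix genes (lowest without the first null array), and 1 to 8 other matrix genes (highest without the second null array). Tgfbi ranged from 0.54 to 0.73 and Atxn1l from -3.21 to -2.17, the latter called in 1 of 5. Deviations of the null arrays from their mean correlated with WT arrays of their own number at -0.05 and -0.30. With 2 null arrays these deviations mirror each other by construction, so the correlations cannot decide whether replicate numbers pair the arrays. With a replicate block 2 matrix probe sets, 1 matrix gene and 0 other matrix genes were called. The calls lost were Tgfbi 1437463_x_at, at 0.65 (limma adjusted p = 0.885), and Col4a1 1452035_at, at 0.69 (limma adjusted p = 0.974), both past the fold but not the p criterion. The causes were not tested. Of the other values for single probe sets, 397 kept their side of the criterion and 34 lost it, and no called value changed sign. Values under 5 limit what can be detected in 23 of the 28 probe sets, and the Fn1 probe set just over 5, tied in WT, is limited as well.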
